A study of Mus musculus with 6 samples.

Results

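Crym, Thra, Thrb and Dio2 are 4 mouse genes that handle thyroid hormone inside cells, and they were taken from the gene tables by symbol, as 4 of 34395 gene entries. Each symbol had 1 entry. RNA from the base of the cochlea, which hears high pitches, was sequenced in 6 libraries from C57BL/6J mice, 3 labelled old and 3 labelled young, in a series on age-related hearing loss. C57BL/6J is an inbred strain that loses hearing early, so the young group carries the same predisposition as the old one. No other genotype, allele or treatment is labelled in either group. The labels give neither ages nor sex and do not say whether a library is 1 animal, so p-values reflect the spread among these 6 libraries alone, which may be technical.

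Thyroid hormone enters cells through membrane transporters, mostly as thyroxine, which has little activity. The deiodinase encoded by Dio2 turns it into active triiodothyronine, the product of Crym (mu-crystallin) binds triiodothyronine in the cytosol, and the nuclear receptors encoded by Thra and Thrb act on genes with or without the hormone. The cochlea needs this signal to mature: loss of Thrb or of Dio2 impairs hearing in mice, and variants of CRYM are a cause of hereditary deafness in people. In the cochlea, mu-crystallin is known from fibrocytes of the spiral ligament, the connective tissue of the lateral wall.

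The libraries differed in more than the age label. Gene counts added up to 26245416 to 26839068 in the old and 37084017 to 39433584 in the young libraries. Xist, the RNA of the inactive X chromosome, had 0 to 9 counts in old and 12613 to 18384 in young libraries, and the Y-linked Ddx3y had 868 to 1107 in old and 0 in each young library. Age and sex-linked profile therefore cannot be told apart in any comparison here. Markers were fixed for 13 cell types. The filter on low counts was passed by 14 of 14 hair cell and 16 of 16 spiral ligament fibrocyte markers, but 1 group alone can satisfy it. Sums per library are given in CPM, a gene's count scaled by the library total after TMM adjustment. Hair cell markers summed to 1179 to 1265 CPM in old and 1546 to 1591 CPM in young libraries. Calb2, Atp2b2 and Myo6 made up most of these sums, with means of 543, 319 and 261 CPM in old libraries. In young libraries their means were 679, 262 and 420 CPM. Fibrocyte markers summed to 12303 to 13499 CPM in old and 20235 to 25515 CPM in young libraries. Cochlear markers were thus present in both groups. Blood and marrow markers were also present, and their sums were lower in old libraries: neutrophil markers summed to 43.8 to 128 CPM in old and 760 to 1042 CPM in young libraries. Whether such differences take part in the results below was not tested. In bulk tissue, fewer cells of a type and less RNA per cell cannot be told apart.

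Of the 4 genes, Crym and Dio2 fell in the old libraries, Thrb rose and Thra did not pass the test. In the edgeR quasi-likelihood fit over 20157 genes, with Benjamini-Hochberg adjustment and a threshold of 0.05, 26.9% of all tested genes were called higher and 27.3% lower in old, 54.2% in all. A call for 3 of 4 genes is to be read against that background. All 4 passed the filter on low counts. By size, Crym stood further out, since 4.46% of tested genes had a larger absolute log2 fold change. This share was 18.6% for Dio2, 54.8% for Thrb and 98.5% for Thra. The rank of Crym rests on low counts and takes in genes of all levels. Its log2 fold change, old over young, was -1.82 with all libraries and -1.43 without old 3.

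**Figure D1:**
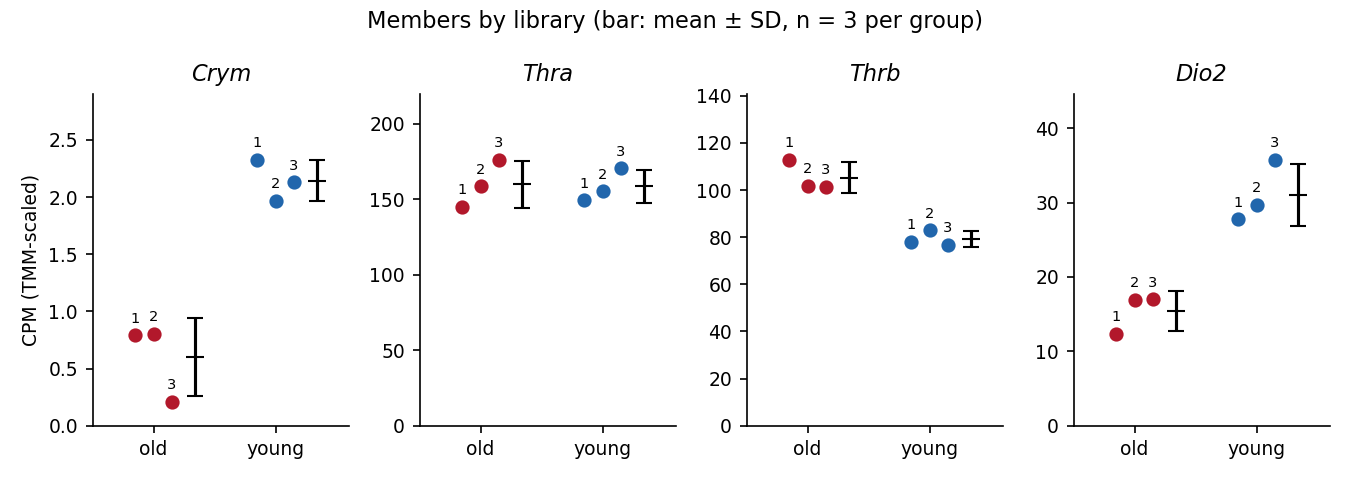
Level of each gene in CPM (TMM-scaled counts) in the 3 old and 3 young libraries, numbered 1 to 3, with the mean and SD beside them. The old libraries lie below the young ones for Crym and Dio2 and above them for Thrb, and the groups overlap for Thra.

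Compared per length, in FPKM (fragment counts divided by transcript length and library total), the 4 genes kept 1 order in all 6 libraries, from Thra through Thrb and Dio2 to Crym. Thra averaged 61.3 ± 4.29 FPKM in old and 52.5 ± 2.53 FPKM in young libraries (SD, n = 3 each, as for all values after ± on levels). Thrb averaged 24.7 ± 1.37 FPKM in old and 14.6 ± 1.32 FPKM in young libraries. Both receptors were thus well above the enzyme and the binding protein. Dio2 averaged 2.76 ± 0.514 FPKM in old and 4.58 ± 0.393 FPKM in young libraries. Crym averaged 0.643 ± 0.367 FPKM in old and 1.87 ± 0.227 FPKM in young libraries. No neighbours in this order overlapped within either group. Among tested genes, 93.4 to 95.1% had a lower FPKM than Thra in the same library, while only 5.4 to 35.8% had a lower one than Crym.

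Crym (gene 12971, chromosome 7, 120186380 to 120201989, GRCm38.p6) encodes mu-crystallin, which also acts as a ketimine reductase in lysine degradation. It had 0.790, 0.805 and 0.208 CPM in old 1, 2 and 3, against 2.32, 1.97 and 2.13 CPM in young 1, 2 and 3. Every old value lay below every young value, and old 3 lay below the other old libraries. The mean was 0.601 ± 0.341 CPM in old and 2.14 ± 0.179 CPM in young libraries, a level 3.56 times as high in young. The log2 fold change (old over young throughout) was -1.82 ± 0.41 (SE, as for all log2 fold changes; 95% interval -2.73 to -0.92; edgeR adjusted p = 0.00382). The groups did not overlap in this direction for 31.0% of all tested genes by CPM and 16.6% by FPKM, and in either direction for 62.3% by CPM. A call with a fall of at least 2-fold, which both Crym and Dio2 had in the fit, was made for 6.15% of them.

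These are low counts. Crym had 23, 24 and 6 counts in old 1, 2 and 3, and 83, 70 and 70 in young 1, 2 and 3. The 95% exact Poisson interval, which covers counting error only, was 0.0762 to 0.452 CPM in old 3, and 0.501 to 1.18 and 0.516 to 1.20 CPM in old 1 and 2. Old 3 therefore differed from the other old libraries by more than counting error. Without old 3 the log2 fold change was -1.43 (adjusted p = 0.00326), and the call was kept.

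Dio2 (gene 13371, chromosome 12, 90724552 to 90739038), the activating deiodinase, is a selenoprotein known to be induced by cyclic AMP. The 250 bases before its annotated start of transcription (RefSeq, GRCm38.p6, chr12:90739039-90739288, minus strand) are shown because they hold the letters of a cyclic AMP response element. Capitals mark a cyclic AMP response element, TGACGTCA, that begins 95 bases before the start, and a TATA box, TATAAAA, that begins 30 bases before it:
Dio2: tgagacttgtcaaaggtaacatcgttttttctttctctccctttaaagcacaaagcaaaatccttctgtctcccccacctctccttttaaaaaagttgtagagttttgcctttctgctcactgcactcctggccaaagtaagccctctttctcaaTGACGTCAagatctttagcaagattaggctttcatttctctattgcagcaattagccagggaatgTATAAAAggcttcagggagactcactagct

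Of 32851 annotated windows of the same length, 1.55% hold TGACGTCA, searched on both strands (it reads the same on each), and 3.02% hold TATAAAA on the sense strand. The motifs do not overlap. A match describes the letters only.

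Dio2 had 12.4, 16.9 and 17.0 CPM in old 1, 2 and 3, against 27.7, 29.7 and 35.7 CPM in young 1, 2 and 3. Each old library was below each young one, with old 1 lowest. The mean of 15.4 ± 2.66 CPM in old stood against 31.0 ± 4.17 CPM in young libraries, 2.01 times as high in young. The log2 fold change was -1.01 ± 0.15 (95% interval -1.33 to -0.68; edgeR adjusted p = 0.000327). It ran from -1.11 to -0.88 when any 1 library was left out. The noncoding Gm26512 starts next to Dio2 on the opposite strand and shares 100 exon bases with it, 1.72% of the Dio2 exons. Gm26512 had 61.9 counts over the old and 113 over the young libraries, where Dio2 had 1356 and 3219.

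The other deiodinases were near the limit of detection. Dio1, which also makes triiodothyronine, had 2 counts over the old and 10 over the young libraries. Dio3, which inactivates the hormone and lies in the imprinted Dlk1-Dio3 region, had 7 over the old and 22 over the young libraries. Neither passed the filter on low counts.

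Thrb (gene 21834, chromosome 14, 17659225 to 18040097) encodes the receptor that hearing depends on. For this gene 2 starts with upstream windows are listed, and both windows are shown (RefSeq, GRCm38.p6, plus strand, chr14:17660710-17660959 and chr14:17981394-17981643). The span of the gene begins before both windows. Which transcripts the deposited values add up is not given. Capitals mark AGGTCA, the hexamer bound by thyroid hormone receptors, which begins 184 bases before the first start, and TATAAAA, which begins 167 bases before the second:
Thrb, first start: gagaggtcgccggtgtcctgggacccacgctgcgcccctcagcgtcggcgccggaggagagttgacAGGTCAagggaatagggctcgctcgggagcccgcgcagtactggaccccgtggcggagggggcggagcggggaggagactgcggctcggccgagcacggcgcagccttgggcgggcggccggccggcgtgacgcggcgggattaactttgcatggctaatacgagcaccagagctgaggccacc
Thrb, second start: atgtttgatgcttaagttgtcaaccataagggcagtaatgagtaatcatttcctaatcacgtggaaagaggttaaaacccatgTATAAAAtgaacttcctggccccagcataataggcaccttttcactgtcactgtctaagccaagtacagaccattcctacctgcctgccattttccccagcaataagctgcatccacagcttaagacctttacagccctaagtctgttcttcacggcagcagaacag

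The first window is 71.6% G and C and the second 44.0%. AGGTCA is common, in 14.0% of the 32851 windows on either strand. The second Thrb window and the Dio2 window do not hold it. How the reads divide between the starts was not analysed here.

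Thrb had 113, 102 and 101 CPM in old 1, 2 and 3, against 78.0, 83.0 and 76.7 CPM in young 1, 2 and 3. Each old value was above each young value. The mean was 105 ± 6.46 CPM in old and 79.2 ± 3.31 CPM in young libraries, a 1.33-fold difference. The log2 fold change was 0.41 ± 0.08 (95% interval 0.24 to 0.58; edgeR adjusted p = 0.00159). In FPKM the means differed 1.69-fold. The groups did not overlap in this direction for 31.2% of all tested genes by CPM and for 44.7% by FPKM.

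Thra (gene 21833, chromosome 11, 98740776 to 98769006) encodes the more abundant receptor here, and also a splice form that does not bind the hormone, which a gene-level value does not separate. It had 145, 159 and 176 CPM in old 1, 2 and 3, against 149, 155 and 171 CPM in young 1, 2 and 3. The groups overlapped almost fully. The log2 fold change was 0.01 ± 0.09 (edgeR adjusted p = 0.916), and its 95% interval, -0.19 to 0.22, does not show that the groups are alike. The call depends on the scaling: with library totals alone the log2 fold change was 0.29 ± 0.09 (adjusted p = 0.0165), and on log2(FPKM + 1) it was 0.22 ± 0.08 (adjusted p = 0.0411), where 38.4% of all tested genes were called higher. In FPKM it had 56.5, 62.8 and 64.6 in old 1, 2 and 3, against 52.4, 50.1 and 55.1 in young 1, 2 and 3, with no overlap. Library totals alone moved the median log2 fold change of all tested genes by 0.274, and called 41.0% of them higher and 14.5% lower in old.

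The end of Thra overlaps that of Nr1d1, a nuclear receptor of the circadian clock, on the opposite strand, over 263 exon bases or 5.7% of the Thra exons in GENCODE M21. Nr1d1 had 77.6, 164 and 131 CPM in old 1, 2 and 3, against 155, 185 and 273 CPM in young 1, 2 and 3, and its groups overlapped. Its log2 fold change was -0.71 ± 0.26 (edgeR adjusted p = 0.0376), and it did not pass without old 1 (adjusted p = 0.104), old 3 (adjusted p = 0.0775) or young 3 (adjusted p = 0.115). With library totals alone its log2 fold change was -0.42 (adjusted p = 0.171), and it did not pass. Whether the counting used strand is not given, so reads of the shared span cannot be assigned to either gene.

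**Figure D2:**
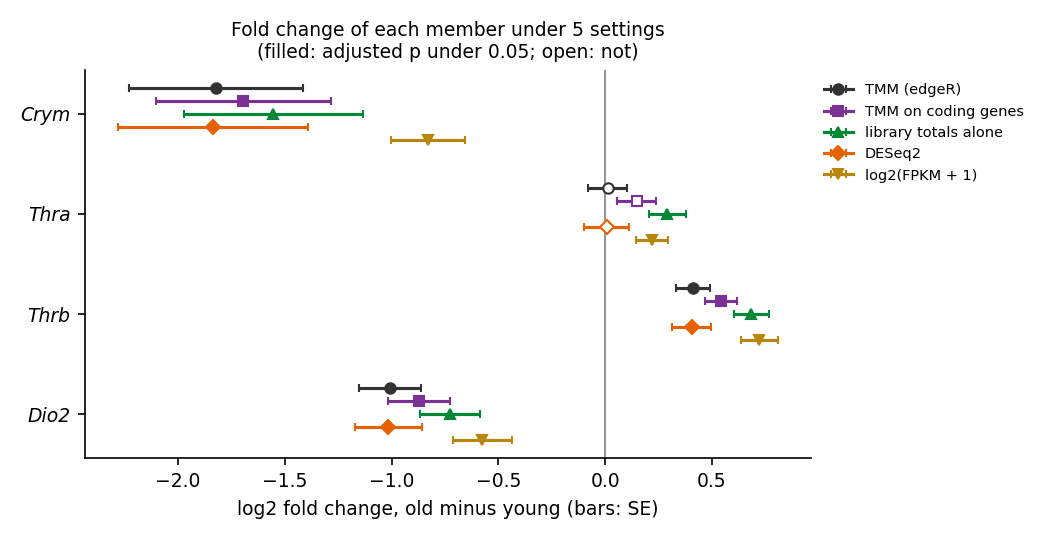
Log2 fold change, old over young, for each gene, with its SE, under 5 settings, filled where the adjusted p was under 0.05. Crym and Dio2 stay below 0 and Thrb above 0 in each, while Thra is filled only with library totals alone and on log2(FPKM + 1).

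A ratio of genes within a library does not depend on how libraries are scaled, but in FPKM it depends on the transcript lengths used. The length implied by count and FPKM was 4653 to 4744 bases for Thrb in old and 4677 to 5234 bases in young libraries. For Thra it was 2789 to 2999 bases in old and 2667 to 2800 bases in young libraries. Thrb made up 31.7, 27.9 and 26.7% of the summed FPKM of both receptors in old 1, 2 and 3, against 23.5, 22.2 and 19.6% in young 1, 2 and 3. The receptor balance therefore lay further toward Thrb in every old library than in any young one. The share averaged 28.8% ± 2.61 in old and 21.8% ± 1.99 in young libraries. The log2 ratio of Thrb to Thra was higher in old libraries by 0.537, a 1.45-fold shift in the ratio (two-sided exact permutation p = 0.1, the smallest that 3 against 3 libraries allow). By CPM, which uses no length, the shift was smaller, 0.399 on the log2 scale.

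The ratio of Crym to Dio2 was less clear. It was 0.387, 0.286 and 0.0714 in old 1, 2 and 3, against 0.491, 0.392 and 0.352 in young 1, 2 and 3, in FPKM. Old 1 lay above young 3, so the groups overlapped. The log2 ratio was lower in old libraries, with a difference of -1.03 (two-sided exact permutation p = 0.2), but of only -0.29 without old 3. A fall of Crym beyond that of Dio2 was thus not shown.

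**Figure D3:**
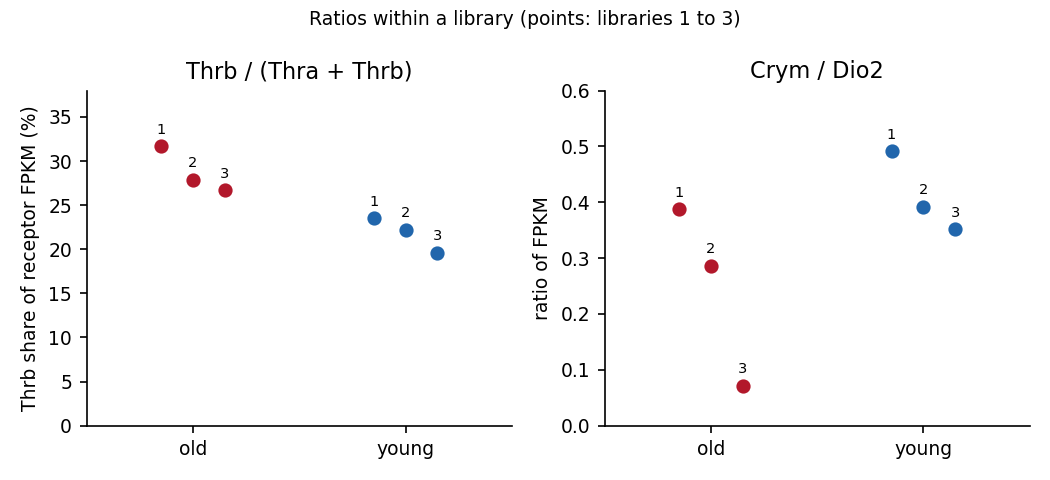
Ratios within each library, with libraries numbered 1 to 3: the Thrb share of the summed FPKM of Thra and Thrb in percent, and the FPKM ratio of Crym to Dio2. The Thrb share is 26.7 to 31.7% in old and 19.6 to 23.5% in young libraries, and the Crym to Dio2 ratio overlaps between the groups.

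The rest of the pathway was taken from 11 lists, which together name 68 genes besides the 4. Of these 59 were tested, 12 rose (20.3%), 25 fell (42.4%) and 22 did not pass, with a median log2 fold change of -0.145, against 26.9% higher, 27.3% lower and a median of 0.01 among all tested genes. The counts move with the scaling, as those of all genes do. With library totals alone 18 rose (30.5%) and 13 fell (22.0%), against 41.0% higher and 14.5% lower among all tested genes. On log2(FPKM + 1) 20 rose (33.9%) and 12 fell (20.3%), against 38.4% higher and 13.7% lower. In these 3 settings the share of lower calls was above that of all tested genes and the share of higher calls below it, a description with no test. All 12 genes that rose also rose with library totals alone, while 13 of the 25 that fell also fell. That setting moved the median log2 fold change of all tested genes up by 0.274, so it keeps rises and drops small falls by design. When each library was left out in turn, 5 of the 12 rises and 23 of the 25 falls passed in all 6 fits.

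Hormone transporters fell in 5 of 8 tested cases and none rose, against 27.3% lower and 26.9% higher among all tested genes. With library totals alone 2 of the 8 fell, Slco1c1 and Slc7a8, and none rose, against 14.5% lower and 41.0% higher. Slco1c1, which carries thyroxine across brain barriers, had 120, 82.0 and 87.5 CPM in old 1, 2 and 3, against 203, 242 and 280 CPM in young 1, 2 and 3. No old value reached a young one, as for 31.0% of all tested genes, and the log2 fold change was -1.32 ± 0.16 (edgeR adjusted p = 0.000109). Slc7a8, an amino acid carrier that also moves thyroid hormone, averaged 159 ± 3.93 CPM in old and 262 ± 3.77 CPM in young libraries (-0.72 ± 0.07, adjusted p = 4.03e-05). Slc16a10 (-0.52) and Slco1a4 (-0.51), further carriers of the hormone, fell too.

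Of the genes of hormone synthesis and transport in blood, 6 of 10 were tested, and 1 rose and 2 fell. These are near the shares of all tested genes, 26.9% higher and 27.3% lower. The serum carrier gene Alb had 4 counts over the old libraries, all in old 2, and 213 over the young (-5.37 ± 0.74, adjusted p = 0.000247, or -9.05 without old 2). Tg, the precursor protein of the hormone, averaged 2.59 ± 0.378 CPM in old and 5.67 ± 1.77 CPM in young libraries (-1.13). Tshb, a subunit of thyrotropin, had 3.47 ± 0.584 CPM in old and 2.20 ± 0.479 CPM in young libraries (0.66, adjusted p = 0.0389). The sums of the blood cell lists were likewise lower in old, with erythroid markers at 418 to 1276 CPM in old and 2208 to 5041 CPM in young libraries, and their part in these values was not tested.

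Partners and cofactors of the receptors went both ways. The partner receptor genes Rxrb (44.6 ± 5.21 CPM in old and 76.2 ± 9.97 CPM in young libraries, -0.77 ± 0.12) and Rxra (-0.45 ± 0.08) fell, while Rxrg did not pass (0.20 ± 0.20, adjusted p = 0.425). Of 6 corepressor genes, 2 rose and 2 fell (33.3% each), near the 26.9% higher and 27.3% lower of all tested genes. The scaffold gene Ncor1 rose (307 ± 12.3 CPM in old and 207 ± 5.54 CPM in young libraries, 0.57 ± 0.07, adjusted p = 0.000161), and Hdac3, the deacetylase it carries, fell (77.7 ± 1.78 CPM in old and 130 ± 9.13 CPM in young libraries, -0.75 ± 0.08). Tbl1xr1 (-0.28), another subunit, fell as well. Of 8 coactivator genes 3 rose, Ncoa1 (0.29), Ncoa2 (0.28) and Crebbp (0.26), and 1 fell, the methyltransferase gene Carm1 (-0.31).

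**Figure D4:**
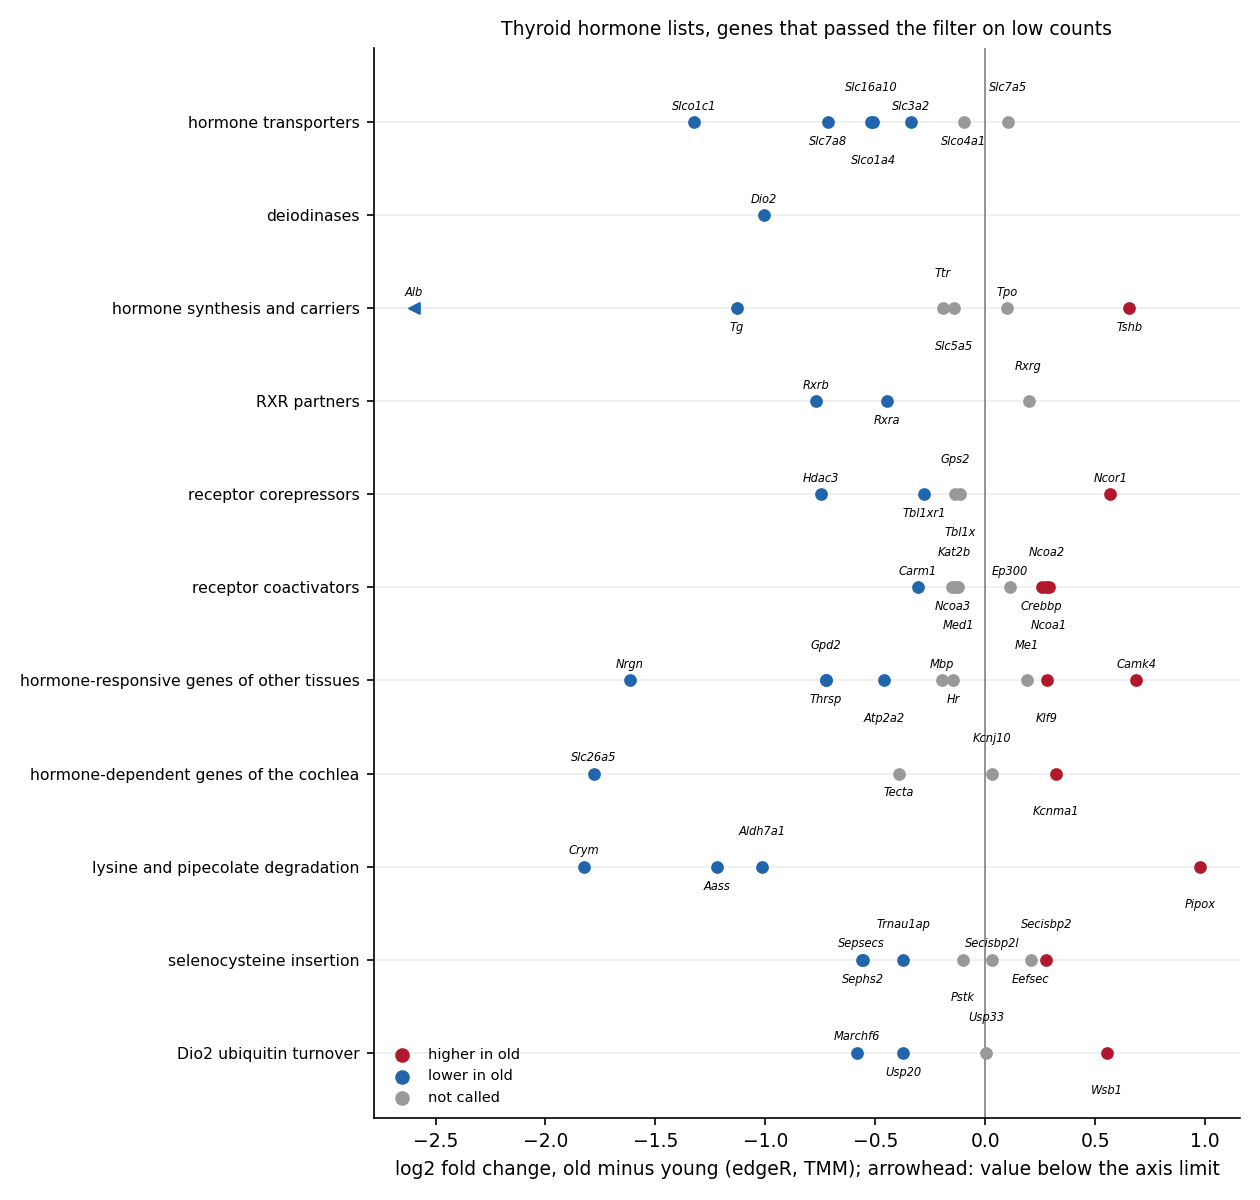
Log2 fold change, old over young (edgeR, TMM), for the tested genes of the 11 lists that are reported here, 1 row per list, with red points higher in old, blue lower in old and grey not called. Slco1c1, Dio2, Tg, Nrgn, Slc26a5, Crym, Aass and Aldh7a1 lie below -1, and Alb, at -5.37, is drawn at the edge.

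Genes known to respond to the hormone went both ways. In other tissues Klf9, Nrgn and Thrsp are classical targets. Of 9 tested genes of this kind 2 rose (22.2%) and 4 fell (44.4%), against 26.9% higher and 27.3% lower among all tested genes. Nrgn, a neuronal calmodulin binder, had 0.591 ± 0.0961 CPM in old and 1.82 ± 0.280 CPM in young libraries (-1.62 ± 0.30, adjusted p = 0.00131). Thrsp (-0.72), a regulator of fat synthesis, and Gpd2 (-0.72), a mitochondrial dehydrogenase gene, fell, and the kinase gene Camk4 rose (0.69). Klf9, a transcription factor, rose by 0.28 ± 0.07 and Atp2a2, the calcium pump gene, had -0.46 ± 0.08; both were chosen after their values were seen.

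Of the genes whose cochlear expression depends on the hormone, 5 of 6 were tested. Of these 1 rose (20.0%), 2 fell (40.0%) and 2 did not pass, against 26.9% higher and 27.3% lower among all tested genes. Slc26a5, the motor of outer hair cells, had 9.78, 5.30 and 9.52 CPM in old 1, 2 and 3, against 20.8, 29.5 and 34.1 CPM in young 1, 2 and 3. Its groups did not overlap, as in this direction for 31.0% of all tested genes. The potassium channel gene Kcnma1 rose (0.32 ± 0.10, adjusted p = 0.0172). Tectb, of the tectorial membrane, had 0 counts over the old and 20 over the young libraries and was not tested. With 3 counts in place of 0 over the old group, it was 5.62-fold lower in old per scaled library size. That value takes the 20 young counts as exact, so it is not a firm bound. Hair cell markers fell in 13 of 14 cases, against 27.3% of all tested genes. Their sums were 1179 to 1265 CPM in old and 1546 to 1591 CPM in young libraries, and Slc26a5 is among them. Most of these sums came from Calb2, Atp2b2 and Myo6, so the sums say little of a marker at the level of Slc26a5.

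Crym also belongs to the degradation of lysine. In the list of lysine and pipecolate degradation, which is not limited to the pipecolate branch, 2 of the other 3 tested genes fell and 1 rose. Of all tested genes, 27.3% fell and 26.9% rose. Aass, which starts lysine breakdown, had 87.2, 65.9 and 73.4 CPM in old 1, 2 and 3, against 138, 187 and 202 CPM in young 1, 2 and 3 (-1.22 ± 0.15, adjusted p = 0.00012). Aldh7a1, the dehydrogenase where the branches meet, averaged 54.9 ± 6.26 CPM in old and 111 ± 10.2 CPM in young libraries (-1.01 ± 0.10). Pipox, which oxidises pipecolate, rose (0.98 ± 0.28, adjusted p = 0.0135), opposite to Crym. Aadat had 5 counts over the old and 4 over the young libraries and was not tested.

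Genes that make and remove the Dio2 protein went both ways, as did all tested genes, with 26.9% higher and 27.3% lower. Of 7 genes that place selenocysteine, 3 fell, Sepsecs (-0.56 ± 0.11), Sephs2 (-0.55 ± 0.08) and Trnau1ap (-0.37 ± 0.14), and Secisbp2 rose (0.28 ± 0.10). Of 4 genes of ubiquitin turnover, Wsb1, part of a ligase that marks the Dio2 protein for removal, rose. It had 63.0, 65.9 and 79.1 CPM in old 1, 2 and 3, against 46.8, 44.5 and 50.2 CPM in young 1, 2 and 3 (0.56 ± 0.10, adjusted p = 0.00122). The groups did not overlap, as in this direction for 31.2% of all tested genes. Marchf6 (-0.58 ± 0.07), another ligase gene, and Usp20 (-0.37 ± 0.09), a deubiquitinase gene, fell.

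Several of these calls were lost when 1 library was left out, though the direction of the change stayed. In the edgeR fit Tshb did not pass without old 2, old 3, young 2 or young 3 (adjusted p = 0.0788, 0.118, 0.165 and 0.0634). Crebbp did not pass without old 1 or young 2 (adjusted p = 0.0862 and 0.0629), Klf9 without young 2 (0.0591), Camk4 without old 3 (0.0533) and Pipox without young 3 (0.0617). Kcnma1 did not pass without old 3, young 2 or young 3 (adjusted p = 0.0691, 0.0812 and 0.0815). Secisbp2 missed the threshold without any 1 library (adjusted p from 0.0676 to 0.136) and Trnau1ap without any but young 1 (adjusted p from 0.0619 to 0.162). With library totals alone Slc16a10, Slco1a4, Rxra, Tbl1xr1, Carm1, Thrsp, Atp2a2, Sepsecs, Trnau1ap and Usp20 did not pass, nor did Slc3a2, a further transporter gene that fell (-0.34).

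Marker levels of the lateral wall fell in old libraries, and so did those of several other cell types. Spiral ligament fibrocyte markers fell in 14 of 16 cases, with sums of 12303 to 13499 CPM in old and 20235 to 25515 CPM in young libraries. Marginal cell markers, of the stria vascularis, fell in 6 of 8 cases and rose in 1. Neuron markers, in contrast, rose in 10 of 11 cases, with sums of 2748 to 3127 CPM in old and 1373 to 1957 CPM in young libraries. Of all tested genes, 27.3% were called lower and 26.9% higher. No list had a defining marker without counts. The part of these differences in the values of the 4 genes was not tested.

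**Figure D5:**
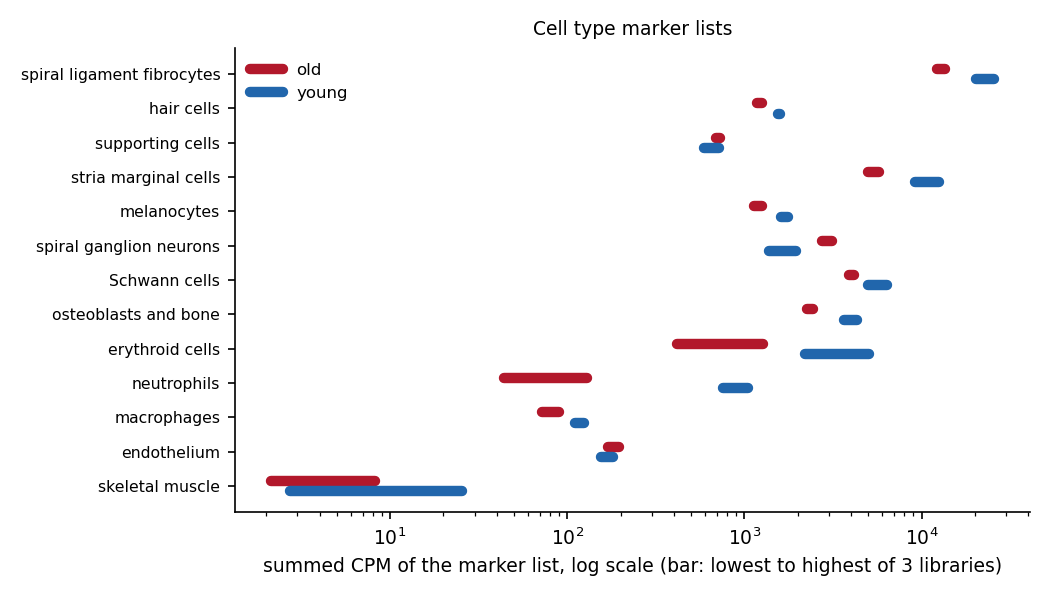
Summed CPM of each cell type marker list on a log axis, each bar from the lowest to the highest of 3 libraries, old above young. The fibrocyte, hair cell, marginal cell and neutrophil sums are lower in old, and the neuron sum is higher in old.

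The genes with the most similar profiles were found by the root mean square difference of log2 CPM, centred over the 6 libraries, among 12657 named genes at a mean of at least 5 CPM. For Crym they were the noncoding Gm24105 (0.317), Chad (0.341), a cartilage matrix protein gene, and Smco4 (0.369). For Dio2 they were Nudt18 (0.064), Slc35g1 (0.074) and Sema3a (0.092), a guidance cue gene. Thrb was closest to Vps54 (0.032), Prdm16os (0.033) and Ralgps1 (0.036), and Thra to Amer2 (0.033), Bambi (0.035) and Hps1 (0.037). The SD of Crym was 56.7% of the mean among old libraries and 8.37% among young ones, and that of Dio2 was 17.2% among old and 13.4% among young ones. All profiles share the same 6 libraries and the same split by age.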

How the data were processed

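Ribosomal RNA was removed from DNase-treated total RNA, per the labels' protocols. Per the submitters' processing notes, GRCm38.p6 served as genome build. The sources used here name no aligner, counter, annotation or strandedness. The authors deposited estimated counts per entry, unscaled, of which 20.2% of the gene values are not whole, and FPKM values. The 8228 circular RNA entries were left out. Counts were rounded and fitted with edgeR 4.0.16 in R 4.3.3 (filterByExpr by group, TMM, quasi-likelihood F test, adjusted over 20157 genes). Each SE is the absolute log2 fold change over the square root of F. Alternatives used limma 3.58.1, DESeq2 1.42.0, other scalings and filters, FPKM, a replicate block and leaving out each library. The fit was tested on simulated data. Python 3.11.15, pandas 2.3.3, scipy 1.17.1 and matplotlib 3.10.9 served for the rest.

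The members and lists were chosen with earlier results of these data known. The text names the 4 members, up to 4 called genes per list with the largest changes whose higher group mean reached 1 CPM, genes that overlap a member, and the 3 genes closest in profile to each. Other genes are named for their count or for contrast, after their values were seen. Some list genes are not reported here and stand only in the counts. RefSeq lists upstream windows for Thrb and Dio2, and Crym and Thra are given without one.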

Additional observations from a re-analysis of the deposited data

How the results depend on the processing

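Crym, Thrb and Dio2 kept their direction and their call in all alternatives that gave a value: 17 for Crym, which a mean count of at least 50 leaves out, and 18 for the others. Their log2 fold changes ran from -2.10 to -0.83, from 0.35 to 0.76 and from -1.11 to -0.57. Leaving out 1 library gave -2.10 to -1.43 for Crym, 0.35 to 0.44 for Thrb and -1.11 to -0.88 for Dio2. Thra passed with library totals alone (0.29), on log2(FPKM + 1) (0.22) and on log2(FPKM + 0.1) (0.22), was -0.0173 without a filter, and ran from -0.0695 to 0.0707 without 1 library. Library totals alone called 8259 genes higher and 2920 lower, against 5427 and 5496, and 2758 and 2792 were lower on log2(FPKM + 1) and log2(FPKM + 0.1). Of the pathway genes, 13 fell with library totals alone and 12 on either FPKM scale, where 20 rose. Without 1 library 7 (without young 2) to 14 rose and 23 to 26 fell. The Thrb to Thra shift ran from 0.435 to 0.61 without 1 library and the Crym to Dio2 shift from -1.512 to -0.292. The cause of these differences was not tested beyond the scaling itself.

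Like-numbered libraries did not deviate together (correlations across genes of -0.082, 0.026 and -0.057), so the numbers were not taken as pairs. With the replicate block, log2 fold changes were -1.91 for Crym, 0.01 for Thra, 0.41 for Thrb and -1.01 for Dio2, no call of the 4 changed, and 9 pathway genes rose and 24 fell. Depth limits Crym above all, at 6 counts in old 3.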
